A study of Homo sapiens with 18 samples.

Results

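The expression of 8 genes for secreted or secretion-related proteins of mucosal surfaces was followed in bladder cancer cell lines: TFF1, GKN1, SPINK4, PLA2G2A, OLFM4, AGR2, LCN2 and PIGR. They were taken by symbol from a table of 16575 genes, and all 8 were present in it. The genes were selected on their CPM in these same libraries: several are almost private to RT-112 or are higher with WWOX in CAL-29, and they differ between AP-2 variants. Their differences between lines and between variants are therefore given as a description, with no test. All 8 passed the filter on low values (reads scaled to the library total as CPM, with 5 CPM or more needed in 1 or more libraries), which 13022 genes of the table passed, LCN2 in all 3 lines, AGR2 and PLA2G2A through RT-112 and CAL-29, and the others through a single line (TFF1, GKN1 and SPINK4 through RT-112, OLFM4 and PIGR through CAL-29).

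Mucosal epithelia cover themselves with a secreted layer of mucus, peptides and transported antibodies. TFF1 encodes a trefoil peptide and GKN1 a gastrokine, both products of the surface mucous cells of the stomach, where they protect and repair the lining. SPINK4 is a Kazal-type protease inhibitor of intestinal goblet cells, AGR2 is a protein disulfide isomerase of the endoplasmic reticulum needed for mucin production, and OLFM4 is an olfactomedin-family glycoprotein of intestinal crypt cells. PLA2G2A is a secreted phospholipase that attacks bacterial membranes, LCN2 binds bacterial siderophores and thereby withholds iron, and PIGR carries dimeric IgA across epithelia. None of them is a classical marker of the urothelium, although LCN2 and PIGR are known in many epithelia.

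RT-112, HT-1376 and CAL-29 are established lines of human urinary bladder carcinoma. Each line had been through 2 stable lentiviral transductions, the first with WWOX (W) or a blank control (K), and the second with AP-2α (A), AP-2γ (C) or a blank control (K), which gave the variants KK (both controls), KA, KC, WK, WA and WC. WWOX, a protein with WW domains, binds AP-2 transcription factors, and the design asks how genes respond to WWOX, to AP-2α (TFAP2A) or AP-2γ (TFAP2C), and to both. All variants, controls included, had received lentivirus at a multiplicity of infection of 3 each time and had been selected with puromycin at 1 µg/mL and with G418 at 400 µg/mL for 3 weeks. The WWOX vector carried a CMV promoter and GFP. There was 1 CAGE library for each variant and line (18 in all), so within a line a comparison has 1 library a side, and across lines the 3 lines serve as replicates. According to the culture protocols RT-112 grew in another basal medium than HT-1376 and CAL-29, so line and medium cannot be told apart. CAGE reads the capped 5′ end of a transcript, and the values are CPM per gene. In such bulk libraries fewer expressing cells and less RNA per cell cannot be told apart.

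The libraries held between 13357102 and 17958572 reads on genes, so 1 read was worth 0.0526 to 0.0709 CPM, and a count of 3 reads, used here as the floor, 0.158 to 0.213 CPM. All 14 urothelial marker genes passed the filter (summed level 4984 to 26231 CPM, with KRT7 alone at up to 15560 CPM). Some passed through 1 line only, KRT20 and UPK3A through CAL-29 and UPK1A through RT-112. Of 13 markers of fibroblasts, leukocytes and endothelium 5 were in the table (summed level 7.43 to 65.7 CPM) and 4 passed. Among these, LUM had 10.67 to 14.31 CPM in RT-112, and COL1A2 reached 46.08 CPM in HT-1376. The library labelled CAL-29 KC did not match its label. Among genes with at least 20 CPM in the KK library of 1 line and under 0.5 CPM in that of the others, it held 46 of the 47 HT-1376 genes but 7 of the 68 CAL-29 genes at 10% or more of that line's KK level, and its median correlation was 0.940 with HT-1376 libraries and 0.741 with CAL-29 libraries. Pairs that use it are named as such, and counts and ranges of CAL-29 that rest on it are also given without it. The targeted genes did not follow every label either. WWOX stood at 154.92 CPM in CAL-29 WK against 22.42 to 69.27 CPM in the other CAL-29 libraries, but at 18.45 to 22.33 CPM in the WWOX libraries of RT-112 against 23.52 to 26.04 CPM in its controls, and in HT-1376 at 18.58 to 23.06 CPM with the WWOX vector against 16.95 to 24.74 CPM without. TFAP2C was raised in RT-112 KC (263.70 CPM) and WC (142.75 CPM), and also in the library labelled RT-112 WA (179.87 CPM), against 49.40 to 57.95 CPM in the other 3. In HT-1376 TFAP2A was at 100.66 CPM in KA against 68.99 CPM in KK, but at 69.91 CPM in WA against 76.90 CPM in WK. TFAP2C was at 213.93 CPM in KC against 158.24 CPM in KK, and at 162.76 CPM in WC against 68.99 CPM in WK. In this line TFAP2A in WA and WWOX did not follow the labels, so the HT-1376 pairs are read by their labels alone. In CAL-29 TFAP2A was at 49.88 CPM in KA against 35.43 CPM in KK, and at 86.67 CPM in WA against 61.66 CPM in WK. Its level in WK, which has no AP-2 vector, was thus above that in KA. TFAP2C was at 338.56 CPM in CAL-29 WC against 93.09 CPM in WK. Transcripts of a transgene may begin outside the annotated gene, so these levels are no measure of the transgene.

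Promoter sequence was held for 7 of the 8 genes (not for TFF1), and 5 are printed. It is from RefSeq (GRCh38.p14), the 250 bases before the start site, 5′ to 3′ on the strand of the gene. GKN1 and SPINK4 stand for the genes limited to RT-112, and LCN2 is the gene well above the floor in all 3 lines. OLFM4 and PIGR had their highest level in a CAL-29 library with WWOX, OLFM4 in WA and PIGR in WK. Bases that GENCODE 44 places in an exon were left out, which removed 63 bases for GKN1 and 74 for LCN2. Capitals mark matches, on either strand, to the AP-1 motif TGANTCA, the ETS motif CCGGAA, the TATA box TATAAA or the NF-kB motif.

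The 5 stretches are as follows.
GKN1, chr2:68974386-68974572 (+ strand): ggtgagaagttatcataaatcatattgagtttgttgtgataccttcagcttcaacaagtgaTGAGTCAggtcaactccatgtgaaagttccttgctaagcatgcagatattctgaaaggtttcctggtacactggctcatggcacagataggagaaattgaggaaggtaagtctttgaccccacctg
SPINK4, chr9:33239917-33240166 (+ strand): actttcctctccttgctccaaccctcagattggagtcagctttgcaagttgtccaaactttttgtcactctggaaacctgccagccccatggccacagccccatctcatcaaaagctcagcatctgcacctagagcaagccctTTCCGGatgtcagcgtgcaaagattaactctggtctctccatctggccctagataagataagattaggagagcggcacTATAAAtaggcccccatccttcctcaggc
OLFM4, chr13:53028563-53028812 (+ strand): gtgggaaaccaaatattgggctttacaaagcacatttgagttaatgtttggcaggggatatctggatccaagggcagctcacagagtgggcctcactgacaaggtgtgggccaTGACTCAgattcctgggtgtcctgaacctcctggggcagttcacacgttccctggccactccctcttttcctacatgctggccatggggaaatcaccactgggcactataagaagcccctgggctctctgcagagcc
LCN2, chr9:128149265-128149440 (+ strand): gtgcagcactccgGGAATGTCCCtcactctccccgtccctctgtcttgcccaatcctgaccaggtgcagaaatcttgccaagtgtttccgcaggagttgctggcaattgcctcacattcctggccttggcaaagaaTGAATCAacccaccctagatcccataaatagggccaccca
PIGR, chr1:206946467-206946716 (- strand): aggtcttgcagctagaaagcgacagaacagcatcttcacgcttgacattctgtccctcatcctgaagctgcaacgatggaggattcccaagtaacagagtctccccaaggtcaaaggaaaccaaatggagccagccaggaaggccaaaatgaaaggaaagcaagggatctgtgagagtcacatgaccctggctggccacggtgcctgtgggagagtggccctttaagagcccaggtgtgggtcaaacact

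An AP-1 match lay in the window of 3 of the 7 genes, GKN1, OLFM4 and LCN2, while 6.57% of 35116 RefSeq promoter windows of this length hold one and 4.59% of those of genes past the filter. GKN1 had 2 such matches, 1 of them in the part not printed. In LCN2 the AP-1 match ended 46 bases before the start and an NF-kB match began 175 bases before it (9.96% of all windows hold that motif). SPINK4 was the only one of the 7 with TATAAA, 29 to 24 bases before its start (10.7% of all windows), and it also had an ETS match (14.5%). The AP-2 motif GCCNNNGGC, held by 19.8% of all windows, was in none of the 7. A match is a run of letters and no evidence of binding, and its absence from this window says nothing of AP-2. The windows were poor in CpG, with 0 to 4 CpG each against a median of 11 over all windows, and had 40.4% to 54.8% G and C against a median of 58.0%.

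**Figure D1:**
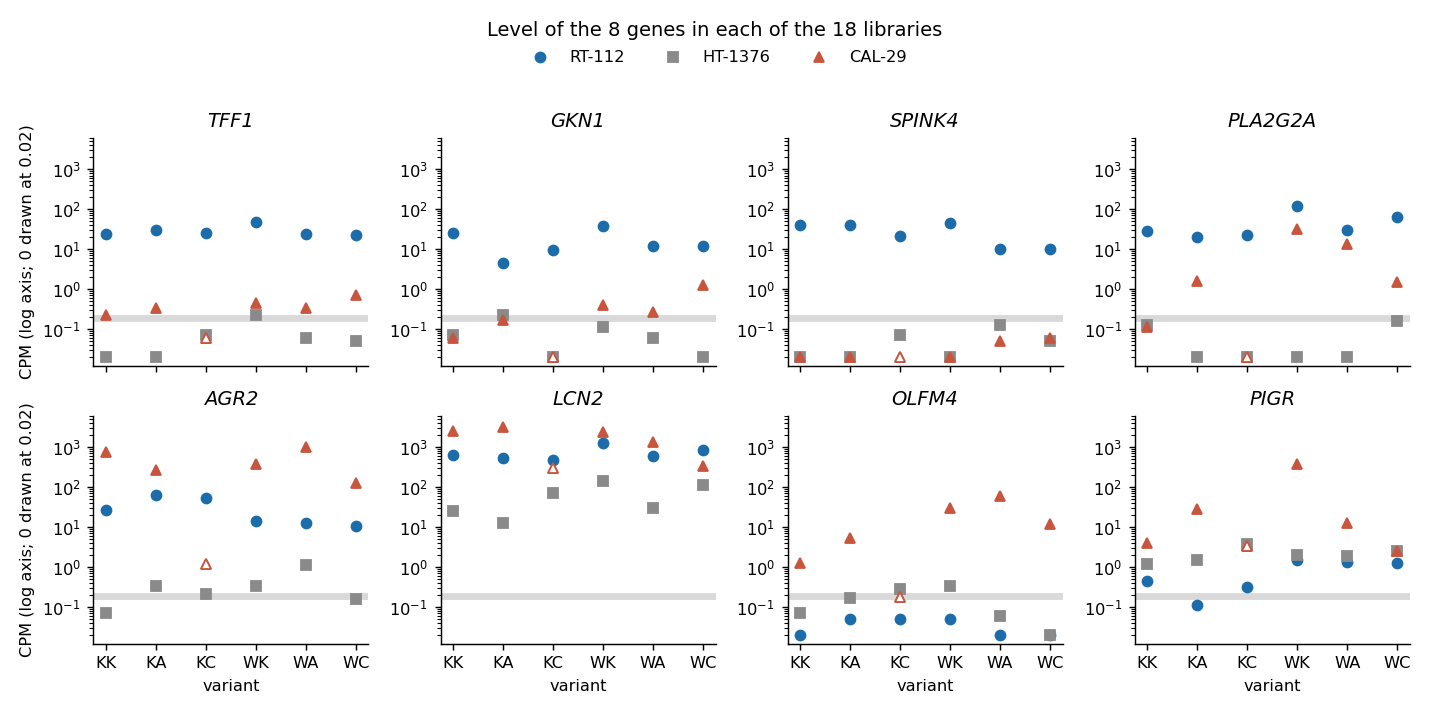
CPM of each of the 8 genes (log axis, 0 drawn at 0.02) in the 6 variants of RT-112 (circles), HT-1376 (squares) and CAL-29 (triangles), 1 point a library, with the library labelled CAL-29 KC as an open triangle and the range of the 3-read floor (0.158 to 0.213 CPM) as a grey band. TFF1, GKN1 and SPINK4 stand apart in RT-112, OLFM4 is above the floor mainly in CAL-29, and LCN2 is well above it in all 18 libraries.

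TFF1, GKN1 and SPINK4 were genes of RT-112. Their lowest level in RT-112 was 23.09, 4.52 and 10.19 CPM, and their highest in any library of the other lines was 0.73, 1.24 and 0.13 CPM. So 3 of the 8 genes had every RT-112 library above every other library, a pattern shown by 5.72% of all genes tested. TFF1 (ENSG00000160182.3, chromosome 21, 42362282 to 42366535, minus strand, gene bounds here and below from GENCODE 44 on GRCh38) had 23.49, 29.41, 25.60, 46.61, 23.42 and 23.09 CPM in RT-112 KK, KA, KC, WK, WA and WC, respectively (28.6 ± 9.14, SD over the 6 variants). WK was the high library and the other 5 lay close together. In HT-1376 TFF1 did not exceed 0.23 CPM (4 reads), and in CAL-29 it was 0.06 to 0.73 CPM, highest in WC with 13 reads. The lowest RT-112 library was 31.6-fold above that value.

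GKN1 (ENSG00000169605.7, chromosome 2, 68974573 to 68980980, plus strand) varied most among the 3 within RT-112, with 25.21, 4.52, 9.62, 37.63, 11.74 and 11.82 CPM in the same order, an 8.33-fold range. It was high in both libraries that carry no AP-2 vector and low in the 4 that do. In HT-1376 it reached at most 0.23 CPM, and in CAL-29 it was at or near 0 in the controls and 0.39, 0.27 and 1.24 CPM (7, 5 and 22 reads) in WK, WA and WC. SPINK4 (ENSG00000122711.9, chromosome 9, 33218365 to 33248567, plus strand) had 40.61, 41.04, 21.65, 45.20, 10.28 and 10.19 CPM in RT-112 and at most 2 reads in every library of the other lines. Here KK, KA and WK formed the high group, and WA and WC the low one. SPINK4 overlaps BAG1 on the opposite strand, and whether counting used strand is not given in the sources used here. BAG1 had 55.5 to 118 CPM in every library, including the 12 in which SPINK4 had at most 2 reads.

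PLA2G2A (ENSG00000188257.11, chromosome 1, 19975431 to 19980416, minus strand) was present in all RT-112 libraries and, in CAL-29, mainly in WK and WA, while CAL-29 KA (29 reads) stood slightly above WC (27 reads). RT-112 had 28.81, 19.73, 22.61, 122.47, 29.57 and 65.41 CPM, CAL-29 had 0.11, 1.60, 0, 31.60, 13.31 and 1.52 CPM, and HT-1376 did not exceed 0.16 CPM. The lines overlap here, since CAL-29 WK (572 reads) lay above 4 of the 6 RT-112 libraries. WK was the highest library in both RT-112 and CAL-29. In the KK libraries alone 9 genes were limited to RT-112 by the rule on line genes given above, and TFF1, GKN1, SPINK4 and PLA2G2A were 4 of them. The genes followed here were selected in part on this pattern, so that number is no separate result.

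AGR2 and LCN2 were high in RT-112 and higher still in most CAL-29 libraries. AGR2 (ENSG00000106541.12, chromosome 7, 16791811 to 16833433, minus strand) had 26.54, 62.29, 52.70, 14.48, 12.69 and 10.61 CPM in RT-112 and 744.05, 265.91, 1.19, 388.40, 1029.90 and 127.42 CPM in CAL-29, against 0.07 to 1.15 CPM in HT-1376. The value of 1.19 CPM is that of the library labelled CAL-29 KC, and without it every CAL-29 library lay above every library of the other lines. In RT-112 AGR2 was at 26.54 to 62.29 CPM in the 3 controls and at 10.61 to 14.48 CPM in the 3 WWOX libraries. LCN2 (ENSG00000148346.12, chromosome 9, 128149071 to 128153453, plus strand) had 654.10, 550.97, 474.38, 1286.38, 605.08 and 877.78 CPM in RT-112, 24.79, 12.88, 73.11, 138.89, 29.33 and 114.39 CPM in HT-1376, and 2571.57, 3184.12, 305.47, 2465.08, 1342.05 and 334.17 CPM in CAL-29. HT-1376 was lowest throughout, and RT-112 and CAL-29 overlapped, with CAL-29 WC below all RT-112 libraries.

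OLFM4 and PIGR were genes of CAL-29. OLFM4 (ENSG00000102837.7, chromosome 13, 53028813 to 53052057, plus strand) had 1.23, 5.36, 0.18, 30.66, 60.00 and 12.20 CPM in CAL-29, at most 0.34 CPM (6 reads) in HT-1376 and at most 1 read in RT-112. Its level was 12.20 to 60.00 CPM in the 3 WWOX libraries of CAL-29, against 1.23 CPM in KK and 5.36 CPM in KA. Without the library labelled KC every CAL-29 library was above every other library. OLFM4 and AGR2 were then the 2 of 8 genes with that pattern, which 13.5% of all genes showed (5.05% with the library included, and then 0 of the 8). PIGR (ENSG00000162896.6, chromosome 1, 206928522 to 206946466, minus strand) had 3.98, 28.31, 3.34, 386.57, 12.44 and 2.59 CPM in CAL-29, 1.18 to 3.76 CPM in HT-1376 and 0.11 to 1.47 CPM in RT-112. A single library, CAL-29 WK, stood far above all the others, and CAL-29 WC lay within the range of HT-1376.

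The effect of WWOX was read within each line as WK/KK, WA/KA and WC/KC, with the ratio of 2 libraries and an exact 95% interval that covers counting error only. In RT-112, PLA2G2A was 4.25-fold higher in WK than in KK (3.86 to 4.69), 1.5-fold higher in WA than in KA (1.31 to 1.72) and 2.89-fold higher in WC than in KC (2.58 to 3.24). LCN2 was 1.97-fold (1.92 to 2.01), 1.10-fold (1.07 to 1.13) and 1.85-fold (1.80 to 1.90) higher in the same pairs. GKN1 was 1.49-fold, 2.60-fold and 1.23-fold higher, the last with an interval of 0.998 to 1.51. PIGR was also higher in all 3 pairs, but with only 2 to 27 reads a library. AGR2 went the other way, 1.83-fold (1.57 to 2.14), 4.91-fold (4.26 to 5.68) and 4.97-fold (4.23 to 5.86) lower with WWOX. Thus 4 of the 8 genes were higher with WWOX in all 3 pairs of RT-112, where 17.7% of all genes were, and 1 was lower in all 3, where 19.5% were. The pair WA/KA differs in more than the WWOX label, since the library labelled WA had TFAP2C at 179.87 CPM against 49.40 CPM in KA and TFAP2A at 25.32 CPM against 46.77 CPM. In WK/KK and WC/KC alone the same 4 genes were higher (22.4% of all genes) and AGR2 was lower (28.2%), a count chosen after the data were seen.

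TFF1 and SPINK4 showed no single direction in RT-112. TFF1 was 1.98-fold higher in WK than in KK (1.76 to 2.23) but 1.26-fold lower in WA than in KA (1.10 to 1.43). SPINK4 differed little between WK and KK (1.11-fold, 1.01 to 1.23), and was 3.99-fold lower in WA than in KA (3.39 to 4.71) and 2.12-fold lower in WC than in KC (1.77 to 2.56). Past 2-fold on the log2(CPM + 0.5) scale, PLA2G2A and PIGR were higher in RT-112 WK/KK (1.44% of all genes were), with none of the 8 lower (0.261%). WA/KA had GKN1 and PIGR higher (2.93%) and SPINK4 and AGR2 lower (2.01%), and WC/KC had PLA2G2A and PIGR higher (1.99%) and again SPINK4 and AGR2 lower (7.87%). With TMM scaling the SPINK4 difference in WC/KC went from -1.05 to -0.86 on the log2 scale and was no longer past 2-fold. Averaged over the 3 pairs, the log2 difference W minus K was 1.38 (SD 0.76) for PLA2G2A and -1.79 (SD 0.81) for AGR2, against 0.17 (SD 0.70) for TFF1.

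In CAL-29 the genes higher with WWOX were PLA2G2A, OLFM4 and, in WK/KK only, PIGR. PIGR was 97.1-fold higher in WK than in KK (76.9 to 125), but 2.28-fold lower in WA than in KA (1.94 to 2.67). OLFM4 was 24.9-fold higher in WK than in KK (16.3 to 40) and 11.2-fold higher in WA than in KA (9.08 to 13.9), log2 differences of 4.17 and 3.37. PLA2G2A was at 2 reads in KK against 572 in WK, a ratio of 287 with an interval from 77.7 to 2333 (188-fold against the floor of 3 reads), and was 8.32-fold higher in WA than in KA (5.63 to 12.7). The pair WC/KC rests on the library that resembled HT-1376. In it OLFM4 was 67.8-fold and AGR2 107-fold higher, values that compare that library and not a CAL-29 KC culture.

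AGR2 and LCN2 had no common direction with WWOX in CAL-29. AGR2 was 1.92-fold lower in WK than in KK (1.86 to 1.97) and 3.87-fold higher in WA than in KA (3.75 to 4.0). LCN2 was nearly equal in WK and KK (1.04-fold lower, 1.03 to 1.06) and 2.37-fold lower in WA than in KA (2.34 to 2.41). PIGR, PLA2G2A and OLFM4 were past 2-fold higher in WK/KK (8.3% of all genes) and none was lower (16.2%). In WA/KA 3 were higher (22.3%) and LCN2 and PIGR were lower (2.86%). GKN1 had 1, 3 and 0 reads in the controls and 7, 5 and 22 in the WWOX libraries, so that with PLA2G2A and OLFM4 it made 3 of the 8 genes higher in all 3 pairs (13.1% of all genes). Without the pair that uses the library labelled KC, a count added after the data were seen, these 3 were higher in both remaining pairs, as were 25.2% of all genes, and LCN2 was lower in both, as were 16.6%. The intervals of GKN1 in these pairs, 0.886 to 311 and 0.320 to 10.6, include equal levels. WWOX itself, as CAGE reads on the native gene, was above the other CAL-29 libraries in WK only, and the part of this in the values for PIGR and PLA2G2A was not tested.

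In HT-1376 LCN2 was the only one of the 8 with more than 100 reads in any library. It was 5.6-fold higher in WK than in KK (5.02 to 6.26), 2.28-fold higher in WA than in KA (1.94 to 2.68) and 1.56-fold higher in WC than in KC (1.45 to 1.69), and 20.5% of all genes were higher in all 3 pairs. The first and second of these were past 2-fold, as were 8.15% and 5.29% of all genes. PIGR, at 18 to 53 reads, moved by less than 2-fold in these pairs, and the other 6 genes were at 18 reads or fewer. LCN2 was thus higher with WWOX in all 6 pairs of RT-112 and HT-1376, but not in WK/KK or WA/KA of CAL-29. Of all genes 17.7% were higher in all 3 pairs of RT-112 and 20.5% in those of HT-1376, and the share in all 6 was not counted.

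**Figure D2:**
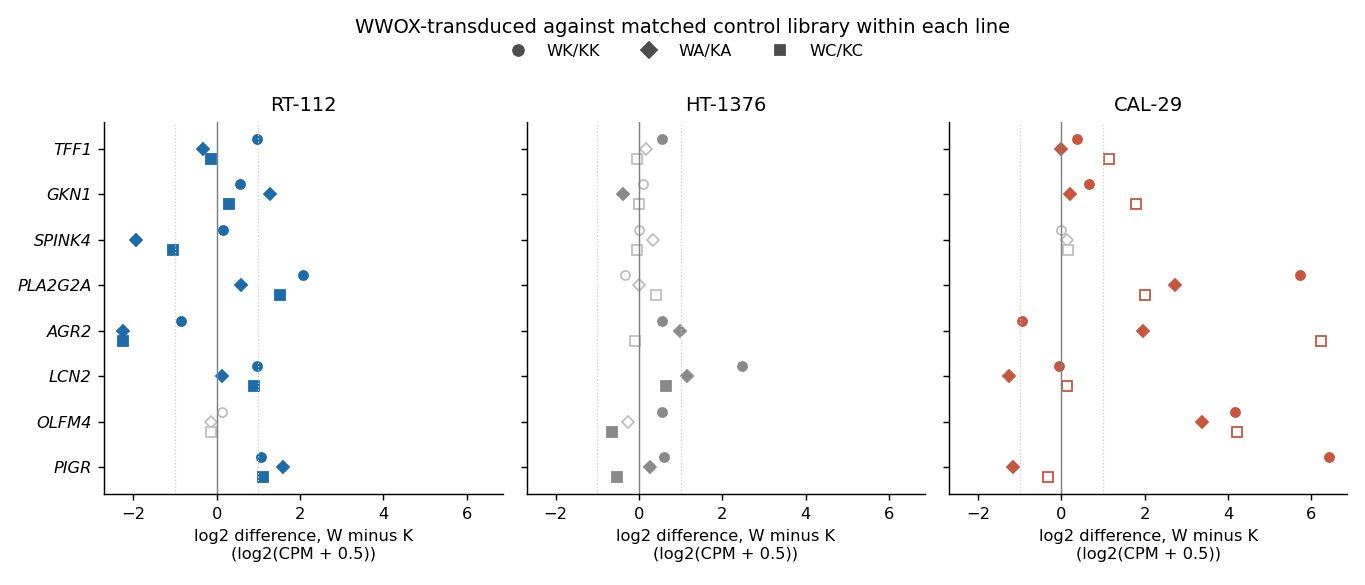
Log2 difference, W minus K, of log2(CPM + 0.5) for each gene in WK/KK (circles), WA/KA (diamonds) and WC/KC (squares), by line, with dotted lines at 2-fold. Pale open symbols have 3 reads or fewer on both sides, and the open squares in CAL-29 use the library labelled KC. AGR2 lies left of 0 and PLA2G2A and PIGR right of it in all 3 pairs of RT-112, and OLFM4 lies far right in all 3 of CAL-29.

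The AP-2 steps were read in the control background (KA/KK, KC/KK) and in the WWOX background (WA/WK, WC/WK). Without WWOX, GKN1 in RT-112 was 5.58-fold lower with AP-2α (4.42 to 7.10) and 2.62-fold lower with AP-2γ (2.20 to 3.13), while AGR2 was 2.35-fold (2.11 to 2.62) and 1.99-fold (1.78 to 2.22) higher. SPINK4 differed in KC/KK, where it was 1.88-fold lower (1.66 to 2.12), and not detectably in KA/KK (1.01-fold, 0.912 to 1.12). TFF1 was 1.25-fold higher in KA than in KK (1.10 to 1.42) and 1.09-fold higher in KC (0.954 to 1.24). Past 2-fold, AGR2 was higher (1.21% of all genes) and GKN1 lower (0.614%) in KA/KK, and in KC/KK GKN1 was lower (0.376%) with none higher (1.94%).

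With WWOX in RT-112, all the genes above the floor were lower in both WA and WC than in WK, as were 39.8% of all genes. SPINK4 was 4.40-fold (3.74 to 5.18) and 4.44-fold (3.76 to 5.27) lower, GKN1 3.21-fold (2.74 to 3.76) and 3.18-fold (2.71 to 3.75), and TFF1 1.99-fold (1.77 to 2.24) and 2.02-fold (1.79 to 2.28). For these 3 genes WA and WC were almost level. PLA2G2A and LCN2 were lower by more in WA than in WC, 4.14-fold against 1.87-fold and 2.13-fold against 1.47-fold. AGR2 and PIGR moved least, with intervals in WA/WK of 0.953 to 1.37 and 0.609 to 1.98 for the WK level over the WA level. GKN1, SPINK4, PLA2G2A and LCN2 were past 2-fold lower in WA/WK (2.39%) and none was higher (2.54%), and GKN1 and SPINK4 in WC/WK (4.91%, with none higher, 1.9%), so 2 of the 8 were so in both, where 1.28% of all genes were. TFAP2C was at 179.87 CPM in the library labelled WA and 142.75 CPM in WC, with TFAP2A at 25.32 and 21.16 CPM, so the 2 libraries do not separate AP-2α from AP-2γ in this line.

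With WWOX in CAL-29, PIGR was 31.1-fold lower in WA (27.2 to 35.6) and 149-fold lower in WC (a WC/WK ratio of 0.00489 to 0.00893) than in WK. PLA2G2A was 2.37-fold (2.04 to 2.77) and 20.8-fold (14.2 to 31.9) lower, and LCN2 1.84-fold (1.81 to 1.87) and 7.38-fold (7.18 to 7.58). For all 3 the lower level was that of WC. OLFM4 and AGR2 instead were 1.96-fold (1.77 to 2.17) and 2.65-fold (2.58 to 2.73) higher in WA, and 2.51-fold (2.14 to 2.95) and 3.05-fold (2.91 to 3.20) lower in WC. In WA/WK 2 of the 8 were past 2-fold lower (5.08%) and 1 higher (12.4%), and in WC/WK 5 were lower (17.2%) and none higher (3.51%). Of the 5, OLFM4 lost its place with TMM scaling, where its log2 difference went from -1.29 to -0.95. GKN1, not one of the 5, was higher in WC (22 reads) than in WK (7 reads). With TMM scaling its log2 difference went from 0.97 to 1.10, past 2-fold higher. PIGR and PLA2G2A were lower in both, as were 2.76% of all genes.

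Without WWOX, KA of CAL-29 had PIGR 7.11-fold (5.54 to 9.25) and OLFM4 4.36-fold (2.72 to 7.26) higher than KK, PLA2G2A 14.5-fold higher (29 against 2 reads, 3.62 to 124, and 9.51-fold against the floor) and AGR2 2.80-fold lower (2.71 to 2.89). These were 3 of the 8 past 2-fold higher (2.93% of all genes) and 1 lower (22.0%). KC/KK cannot be read in this line. In HT-1376, LCN2 was 1.92-fold lower in KA than in KK (1.63 to 2.28) and 2.95-fold higher in KC (2.62 to 3.33), and with WWOX it was 4.74-fold lower in WA than in WK (4.28 to 5.24) and 1.21-fold lower in WC (1.14 to 1.29). LCN2 and PIGR were past 2-fold higher in KC/KK of HT-1376 (7.64% of all genes), and LCN2 was lower in WA/WK (1.12%). LCN2 was lower in WA and in WC than in WK in all 3 lines. In RT-112 39.8% of all genes were so, and the share over the 3 lines together was not counted.

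**Figure D3:**
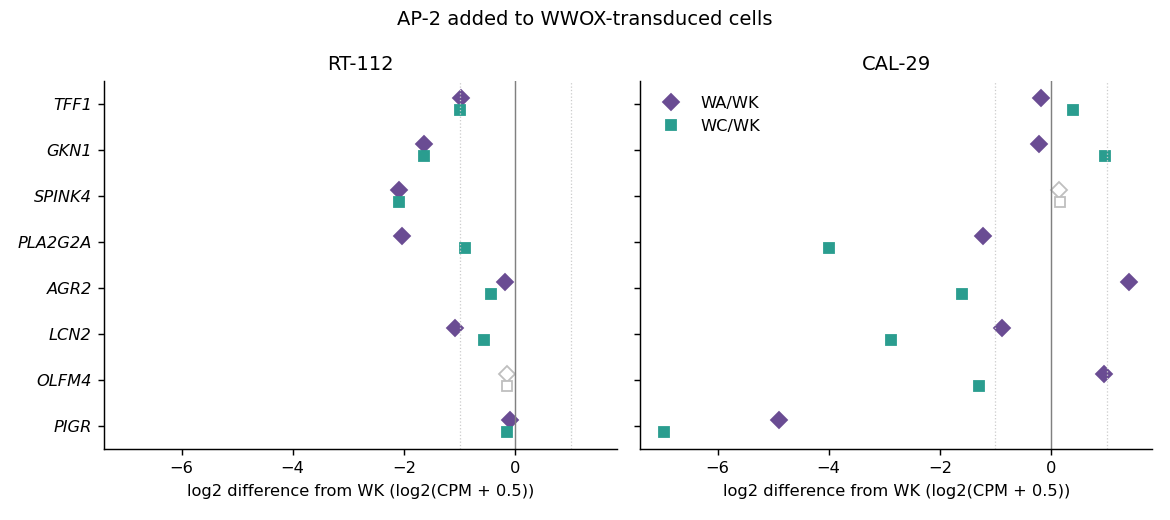
Log2 difference of log2(CPM + 0.5) from WK in WA (diamonds) and WC (squares) for each gene in RT-112 and CAL-29, with dotted lines at 2-fold and pale open symbols where both libraries had 3 reads or fewer. In RT-112 TFF1, GKN1 and SPINK4 have WA and WC almost on top of each other, and in CAL-29 PIGR, PLA2G2A and LCN2 lie further left in WC than in WA.

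With the 3 lines as replicates of a variant, no gene of the table passed in limma. On the recovered reads limma-voom with no block called 0 genes in each of the 5 comparisons, while edgeR and DESeq2 called some. In limma on log2(CPM + 0.5), the 5 comparisons of another variant with KK each called 0 of 13022 genes (0.0%) at an adjusted p under 0.05. This fit had no term for the line, so differences between lines entered its error. Its 0 calls therefore do not show that the variants were equal. At an unadjusted p under 0.05 there were 38, 7, 11, 37 and 84 genes in WK, KA, KC, WA and WC against KK. Tests on the recovered reads with the line as a block called 0, 0, 5, 0 and 0 genes in edgeR and 4, 1, 114, 7 and 35 in DESeq2. For the 8 genes the differences are given by line and without a test. PIGR was higher in WK than in KK by 1.07, 0.61 and 6.43 on the log2(CPM + 0.5) scale in RT-112, HT-1376 and CAL-29, a mean of 2.70. PLA2G2A differed by 2.07, -0.33 and 5.72, a mean of 2.48, with at most 2 reads in the HT-1376 pair. LCN2 differed by 0.98, 2.46 and -0.06, and AGR2 by -0.85, 0.56 and -0.94, the HT-1376 value of AGR2 on 6 reads against 1. A single line thus set most of the mean for PIGR and PLA2G2A, and neither AGR2 nor LCN2 had the same sign in all 3.

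Other genes of mucosal secretion were read from 6 lists (gastric pit, mucins, goblet cell, antimicrobial and protease inhibitor, immunoglobulin transport, and regulators). Of their genes 76 were in the table and 51 passed the filter. The lists were chosen with earlier results of these data known. Some genes passed the filter only through lines in which they are high, so the counts are a description. Between lines, in limma with the variant as a term, 22 of the 51 (43.1%) were higher in RT-112 than in HT-1376 and 15 lower. Against CAL-29, 16 (31.4%) were higher in RT-112 and 14 lower. Without the filter 30 of the 76 were higher and 18 lower than in HT-1376, and 24 higher and 19 lower than in CAL-29. Over all genes past the filter 17.7% were higher and 40.3% lower in RT-112 than in HT-1376, and 14.9% higher and 54.4% lower than in CAL-29. That background depends on scaling. With TMM scaling 3421 genes were higher and 3815 lower in RT-112 than in HT-1376, against 2302 and 5247 without it, and in RT-112 than in CAL-29 3870 and 4800, against 1939 and 7086. TMM also turned the split of the 51 genes to 25 higher and 13 lower, and to 21 and 8, and moved the median log2FC of all genes from -0.43 to -0.10 and from -0.81 to -0.21. The 6 libraries of a line are variants and not separate cultures of it, so these p-values measure the spread over variants.

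The goblet cell list had 5 genes past the filter, and all 5 were higher in RT-112 than in HT-1376 (adjusted p under 0.05, as below). Of the 5, 3 were also higher than in CAL-29. The share of all genes higher in RT-112 than in both other lines was not counted. Of the 5, 4 (BCAS1, ST6GALNAC1, CEACAM5 and CEACAM6) had at most 0.33 CPM in HT-1376. These 4 passed the filter only through the lines in which they are high, so the count had to be large. Without the filter 6 of 11 were higher than in HT-1376 and 4 of 11 higher than in CAL-29, and the median log2FC against HT-1376 was 1.48 in place of 4.73. CEACAM5, a cell-adhesion glycoprotein of gut epithelium, had 9.95 to 27.04 CPM in RT-112, against 0 to 18.19 CPM in CAL-29 and 0 to 0.22 CPM in HT-1376, and CEACAM6 followed it with 5.43 to 32.78, 0.36 to 22.45 and 0 to 0.33 CPM. Without the library labelled KC the lowest CAL-29 values were 1.29 and 0.84 CPM. The third was ST6GALNAC1, a sialyltransferase of mucin glycans, named after its values were seen. With a pseudocount of 0.05 CPM its difference from CAL-29 did not pass (adjusted p = 0.058 in limma). Of the mucins, 6 of 15 were in the table and 3 passed the filter. MUC20 was higher in RT-112 (117 to 239 CPM) than in HT-1376 (0.17 to 1.61 CPM) and CAL-29 (1.43 to 156 CPM, and from 13.33 CPM without the library labelled KC), with log2FC of 7.15 (SE 0.64) and 2.39 (SE 0.64). MUC1 was lower in RT-112 than in HT-1376, with log2FC -4.07 (SE 0.56), and MUC4 was higher, with 3.88 (SE 0.88). The secreted gel-forming mucins MUC5AC, MUC5B and MUC6 are not analysed here, nor is TFF3.

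SLPI, a secreted protease inhibitor of mucosal fluids, had 1580 to 2661 CPM in RT-112, which lay above its 132 to 797 CPM in CAL-29 and its 63.5 to 1529 CPM in HT-1376, with no overlap (log2FC 2.62, SE 0.60, against HT-1376 and 2.73, SE 0.60, against CAL-29). It was 1 of 5 of the 14 antimicrobial genes past the filter that were higher in RT-112 than in both other lines, beside DEFB1, PGLYRP4, BPIFB1 and SPINK7 (named after their values were seen). The share of all genes higher than in both was not counted, here or for the immunoglobulin transport list. BPIFB1 and SPINK7 lost a call with a pseudocount of 2 CPM, and BPIFB1 also without the library labelled CAL-29 KC (adjusted p = 0.105 in limma). CFB, the complement factor B gene, was lower than in both, with log2FC -4.36 (SE 0.58) and -2.47 (SE 0.58), and so was WFDC2, a gene of the whey acidic protein family of inhibitors (-4.98 and -6.25, named after its values were seen). PSCA, a surface protein of stomach and bladder epithelium, was higher in RT-112 than in CAL-29 (log2FC 5.16, SE 0.97), and the difference from HT-1376 (1.31, SE 0.97) did not pass. In the immunoglobulin transport list, RAB3D and PLAUR were higher in RT-112 than in both other lines, and RAB27A, MAL2 and FCMR, a receptor for IgM (-4.21 and -2.31, named after its values were seen), lower. The lower level of RAB27A and MAL2 depended on scaling, since with TMM their log2FC against CAL-29 became -0.05 and -0.03 and did not pass, nor did that of RAB27A against HT-1376 (-0.24). MAL2 also lost its call against CAL-29 without the library labelled KC (adjusted p = 0.111 in limma). Of the 21 regulators past the filter 8 were higher and 7 lower in RT-112 than in HT-1376, and 2 higher and 8 lower than in CAL-29 (11 and 7, and 4 and 4, with TMM scaling). SPDEF, an ETS factor of goblet cells, and CDX2, a homeobox factor of intestinal epithelium, were higher in RT-112 than in both other lines. They were named after their values were seen, and both passed the filter only through RT-112, so these calls are a description. SPDEF had 0.22 to 23.62 CPM in RT-112, against at most 0.06 CPM in HT-1376 and 2.16 CPM in CAL-29. CDX2 had 4.74 to 10.74 CPM in RT-112, against at most 0.19 CPM in HT-1376 and 0.06 CPM in CAL-29. ELF3 was higher in RT-112 than in HT-1376 (log2FC 1.91, SE 0.33) and level with CAL-29 within its error (-0.02, SE 0.33). Those lower than in both were named after their values were seen as well. KLF4, a zinc finger factor of differentiating epithelium, had log2FC -3.54 against HT-1376 and -3.21 against CAL-29. NFKB1, a subunit of NF-kB, had -2.17 and -2.37, and STAT3, which acts downstream of cytokine receptors, -2.03 and -2.34. RELB (-1.18 and -1.21), another subunit of NF-kB, and IRF1 (-0.98 and -1.10), an interferon regulatory factor, lost their call against CAL-29 with TMM scaling, where their log2FC was -0.56 and -0.42.

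**Figure D4:**
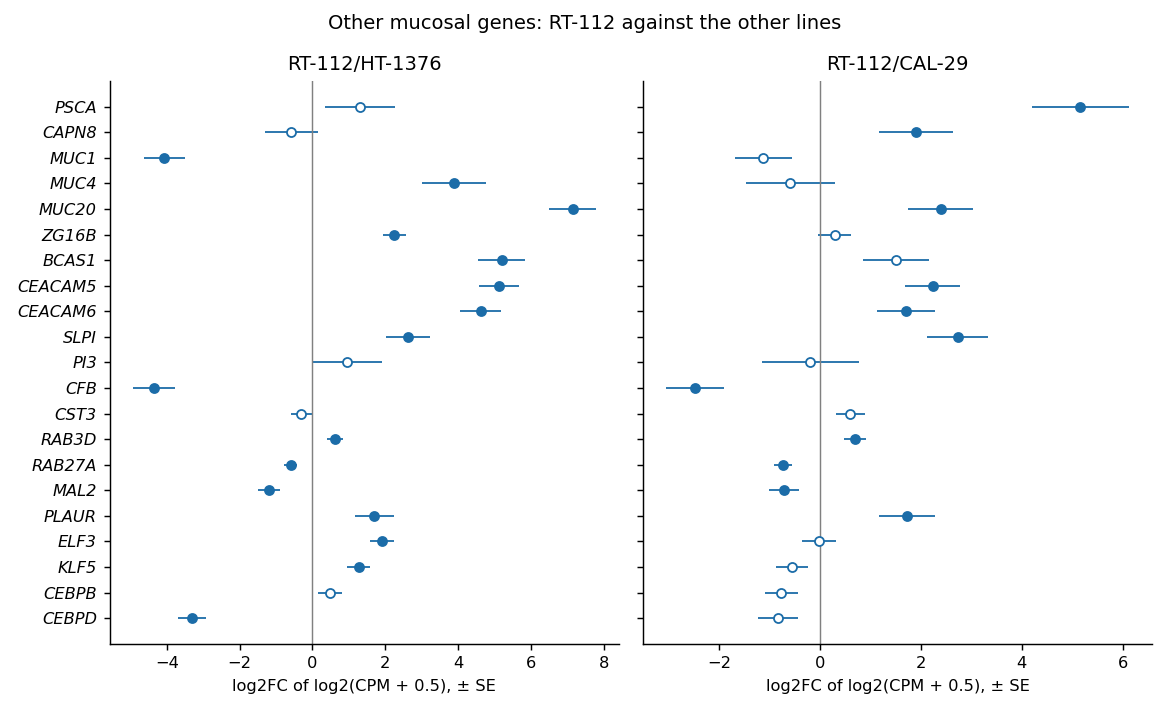
Log2FC (± SE) of RT-112 against HT-1376 (left) and CAL-29 (right) in limma on log2(CPM + 0.5) over 18 libraries for the 21 genes of the 6 lists with the highest CPM, at most 4 a list, where filled points have an adjusted p under 0.05. MUC20, CEACAM5, CEACAM6, SLPI, RAB3D and PLAUR are filled and right of 0 in both panels, and CFB, RAB27A and MAL2 are filled and left of 0 in both, the latter 2 near 0 in the right panel once TMM scaling is applied.

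For WWOX within CAL-29, 51 of 13022 genes were called (0.392%), 42 of them higher (0.323%) and 9 lower (0.0691%), and of the 51 listed mucosal genes 2 were higher and 0 lower. Each line had 1 library for each variant. The p-values of this fit thus measure how the WWOX difference varied over the AP-2 backgrounds within lines, and not a spread between cultures. BCAS1, a goblet cell gene, had a log2FC of 3.15 (SE 0.43, limma, adjusted p = 0.0122), with 0 to 50.5 CPM over the CAL-29 libraries and 3.70 CPM or more without the library labelled KC. KLF5, a zinc finger factor of proliferating gut and urothelial epithelium, had a log2FC of 1.36 (SE 0.24, limma, adjusted p = 0.0475). Without the library labelled CAL-29 KC both were still called, together with NFKBIZ (named after its values were seen), among 95 genes. With 5 CPM needed in 3 libraries KLF5 did not pass (adjusted p = 0.0558 in limma) and BCAS1 was the only listed gene called, and with a pseudocount of 0.05 CPM none was. In the 5 comparisons of variants over the 3 lines, fitted with no term for the line, 0 of the 51 were called, as were 0 of all genes.

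The genes whose pattern over the 18 libraries was most like each of the 8 were found by Pearson's r of log2(CPM + 0.5). The libraries fall into 3 lines, so r mostly reads the difference between lines. TFF1 was most like LINC01819 (r = 0.992) and GPR78 (0.991), both RT-112 genes. TFF1 itself was among the 3 genes most like GKN1 (0.968, after TRBV30 with 0.972 and before TNNC1 with 0.966) and SPINK4 (0.979, after C16orf54 with 0.982 and HOXD9 with 0.980). PLA2G2A was most like RNF39 (0.955), UPK2 (0.955), a uroplakin of umbrella cells, and BMP3 (0.953). OLFM4 followed EGR3 (0.984), THEG (0.975) and ANGPTL2 (0.962), and AGR2 followed AUTS2 (0.979), ZNF880 (0.975) and CCNJ (0.974). LCN2 was most like ISG15 (0.945), an interferon-induced ubiquitin-like protein, PER2 (0.940) and IRF5 (0.936), and PIGR was most like FHIP2B (0.917), the uroplakin UPK3A (0.898) and TPCN1 (0.881). Within the 6 RT-112 libraries, where lines play no part, LCN2 and PLA2G2A had r = 0.975, AGR2 and PIGR -0.959 (PIGR with 2 to 27 reads), and TFF1 and GKN1 0.444.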

How the data were processed

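CAGE libraries of 18 stable transductants (3 lines, 6 variants, 1 library each) had been sequenced as 75 nt single-end reads. Per the study's methods and the labels, reads were mapped to hg38 with BWA and then HISAT2 (version 2.0.5) and counted per gene. The deposited values are CPM with 2 decimals, made by the authors, and no count table was used. CPM summed to 935917 to 947110 a library. Whole reads were recovered from the CPM steps (99.97% to 99.99% of values within 0.0051 CPM of a whole multiple, against 12.4% to 19.1% for a wrong step). In RT-112 WC the low values alone were less regular, and all values were used. No 2 libraries were duplicates. Symbols came from GENCODE 44 by Ensembl ID (16553 of 16575 genes).

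The 8 genes and the gene lists were chosen with earlier results of these data known. Genes reaching 5 CPM in any library were kept, and log2(CPM + 0.5) was fitted with limma 3.58.1 (trended empirical Bayes, Benjamini-Hochberg over 13022 genes, adjusted p under 0.05), by variant over all lines with no block, by line with variant as a term, and for WWOX within each line. limma with voom was the study's tool, and the log scale was used here because the files hold CPM. The line as replicate number marks the same cell line in every variant, and deviations from the variant means of libraries of 1 line correlated with r = 0.036 to 0.881 (CAL-29), 0.588 to 0.896 (HT-1376) and 0.742 to 0.915 (RT-112), and the pairing comes from the shared line. Pairs of libraries within a line have no test. Their exact 95% intervals, and the floor of 3 reads, cover counting error only. From the other lists up to 4 genes each with the highest CPM are named, and for each of the 8 the 3 genes with the highest Pearson correlation, 1 of which is not reported here. Fits were tested on simulated data. Alternatives were pseudocounts of 0.05 and 2 CPM, other filters, TMM scaling, the line as a block, edgeR 4.0.16 and DESeq2 1.42.0 on recovered reads, and leaving out libraries. R 4.3.3, Python 3.11.15, SciPy 1.17.1 and pandas 2.3.3 were used.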

Additional observations from a re-analysis of the deposited data

How the results depend on the processing

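The 5 comparisons with KK kept 0 called genes in limma under both other pseudocounts, both other filters, TMM scaling and with each replicate left out in turn (0 to 0 genes). With the line as a replicate block limma also called 0 genes, and the genes at an unadjusted p under 0.05 rose to 506, 63, 550, 209 and 1399 in WK, KA, KC, WA and WC against KK. On recovered reads with the replicate block edgeR called 5 genes in KC/KK and 0 in the other 4, and DESeq2 called 4, 1, 114, 7 and 35 genes in the same order. KC/KK uses the library labelled CAL-29 KC. With limma-voom on those reads and no block, 0 genes were called in all 5. For WWOX in CAL-29 the 51 called genes became 9 with a pseudocount of 0.05 CPM, 110 with no filter and 95 without the library labelled CAL-29 KC. The cause was not tested. TMM scaling turned CAL-29/HT-1376 from 5095 higher and 1996 lower to 3507 and 2998. Of 124 pairs of libraries with over 3 reads on a side, TMM changed the sign of 5, the largest a difference of 0.22 on the log2 scale, and moved 8 across the 2-fold line. The log2FC of the 8 genes against KK took 360 values under alternatives, of which 348 stayed within 1 SD and 39 changed sign. The sign changes fell on all 8 genes, and for SPINK4 on all 5 comparisons, so the direction of many of the 40 log2FC is not settled. The mean W minus K differences took 96, of which 86 stayed within 1 SD and 0 changed sign. Leaving out the pair with the library labelled RT-112 WA or CAL-29 KC, chosen after the data were seen, kept 4 and 3 of the 8 genes higher with WWOX and moved the genes lower in CAL-29 from 0 to 1. A single library a side limits every comparison within a line, and counting error limits those under 30 reads.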

Other observations

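The genes beside the 8 on the chromosome were read as well. TFF2, the trefoil gene 11.3 kb from TFF1, had 1.44 to 3.80 CPM in RT-112 and at most 0.06 CPM in the other lines, and its log2(CPM + 0.5) followed TFF1 with r = 0.966 over the 18 libraries, which fall into 3 lines. PLA2G2F, another secreted phospholipase, 159 kb from PLA2G2A, had 210.6 to 374.6 CPM in RT-112, 0.66 to 15.3 CPM in HT-1376 and 0.45 to 5.03 CPM in CAL-29, so CAL-29 WK, in which PLA2G2A reached 31.60 CPM, had at most 5.03 CPM of it. AGR3, 26.0 kb from AGR2, had 0.16 to 2.26 CPM in RT-112 and at most 0.12 CPM in CAL-29, where AGR2 was highest. BBLN, 6.81 kb from LCN2, had 436 to 645 CPM in RT-112, 45.3 to 94.7 CPM in HT-1376 and 98.6 to 713 CPM in CAL-29 (r = 0.900 with LCN2). The neighbours of GKN1 were not highest in RT-112: ANTXR1 had 12.0 to 22.5 CPM there against 27.4 to 119 CPM in HT-1376. FCMR, 5.28 kb from PIGR, was highest in HT-1376 (4.08 to 27.8 CPM).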
